A study of Danio rerio with 53 samples.

Results

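The genes cd74a (ENSDARG00000009087) and cd74b (ENSDARG00000036628) encode the zebrafish forms of the MHC class II invariant chain. They were selected by gene identifier, and are 2 of the 14423 genes in the deposited count table. In mammals the invariant chain is a chaperone that binds newly made class II alpha and beta chains, fills their peptide groove and carries them to endosomes, where proteases such as cathepsin S cut it away before antigen peptides are loaded. Class II genes and the invariant chain are made mainly by antigen-presenting cells, B cells among them, under the transactivator CIITA. Mammalian CD74 at the cell surface is also a receptor for the cytokine MIF. The zebrafish genome carries the invariant chain as a pair of paralogs, cd74a and cd74b.

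The libraries came from lymphocytes sorted by fluorescence out of zebrafish thymus (29 libraries) and marrow (24 libraries), and the 3' ends of transcripts were sequenced (QuantSeq FWD). Every fish carried a red and a green reporter. The genotypes in the labels are rag2RFP-cd79aGFP, rag2RFP-cd79bGFP, lckmCherry-cd79aGFP and lckmCherry-cd79bGFP, shortened here to rag2-cd79a, rag2-cd79b, lck-cd79a and lck-cd79b. No treatment was given, and the labels state neither the age of the fish nor whether libraries of a group came from separate fish, so p-values measure the spread between libraries, which may be technical. As background, rag2 drives expression during antigen receptor rearrangement, lck belongs to T cells, and cd79a and cd79b encode the signalling chains of the B cell receptor. The red reporter therefore differs between the lines, and each stage was sorted from only some of them. The thymus gave T Stage I (rag2-cd79a, sorted as populations T2 and T3, 3 libraries each), T Stage II (rag2-cd79a and rag2-cd79b, 3 each), T Stage III and T Stage IV (lck-cd79a, 3 each) and Thymic B (3 from rag2-cd79a, 3 from rag2-cd79b, 3 from lck-cd79a and 2 from lck-cd79b). The marrow gave Early T-committed cells (lck-cd79a and lck-cd79b, 3 each), Early B-committed cells (1 from rag2-cd79a and 2 from rag2-cd79b), B Stage I and B Stage II (rag2-cd79a and rag2-cd79b, 3 each) and B Stage III (rag2-cd79b, 3).

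Sequencing depth lay between 7295854 and 18778603 counts, and the median library had 11912824. The invariant chain genes were among the deepest measured transcripts. The lowest count of cd74a in any of the 53 libraries was 3283 and the highest 108185, and cd74b ran from 1372 to 30456 counts. The median rank of cd74a among all genes of a library was 101, with a best rank of 4, and that of cd74b was 158, with a best rank of 83. The exact Poisson 95% interval of a level was at most 3.44% to either side for cd74a and 5.33% for cd74b. These intervals cover counting error only, and replicates of a group varied far more than that. No sequence was used here, so whether the paralogs share reads was not examined, and their separate values are uncertain to that extent.

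Both genes were detected in every library of every cell type, T cells included, and both were highest in Thymic B and lowest in T Stage IV. Levels are given in CPM, the count per 1000000 counts of the library. In Thymic B, cd74a had a lowest level of 2830 CPM, a median of 8582 CPM and a highest of 12468 CPM, with a mean of 8274 ± 3037 CPM (SD, n = 11). B Stage II (5063 ± 1532 CPM, SD, n = 6) and B Stage III (5007 ± 343 CPM, SD, n = 3) came next. The next tier held Early B-committed cells (2231 ± 1873 CPM, SD, n = 3), B Stage I (2219 ± 614 CPM, SD, n = 6) and Early T-committed cells (2192 ± 744 CPM, SD, n = 6), whose means were close together. The thymic T populations stood below these, with T Stage III at 1596 ± 332 CPM (SD, n = 3), then 1012 ± 624 CPM in T Stage I (SD, n = 6), 724 ± 485 CPM in T Stage II (SD, n = 6) and 362 ± 134 CPM in T Stage IV (SD, n = 3). The highest mean of cd74a was 22.9 times the lowest. Of the 9 neighbouring pairs in this order, the gap exceeded the larger SD only between Thymic B and B Stage II, whose ranges still overlapped, and between B Stage III and Early B-committed cells, whose ranges did not.

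For cd74b the order was similar but the span was narrower, with a highest mean 10.3 times the lowest. Thymic B held 767 CPM in its lowest library, 1984 CPM at the median and 2825 CPM in its highest, with a mean of 1832 ± 588 CPM (SD, n = 11). B Stage III (1537 ± 176 CPM, SD, n = 3) and B Stage II (1363 ± 142 CPM, SD, n = 6) followed, then B Stage I (909 ± 183 CPM, SD, n = 6), Early T-committed cells (798 ± 337 CPM, SD, n = 6) and Early B-committed cells (586 ± 474 CPM, SD, n = 3). T Stage III held 508 ± 174 CPM (SD, n = 3), T Stage II 313 ± 106 CPM (SD, n = 6), T Stage I 276 ± 82.8 CPM (SD, n = 6) and T Stage IV 178 ± 59.7 CPM (SD, n = 3). The gap between neighbours exceeded the larger SD from B Stage II to B Stage I, from T Stage III to T Stage II and from T Stage I to T Stage IV, and in each of these the ranges overlapped.

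**Figure D1:**
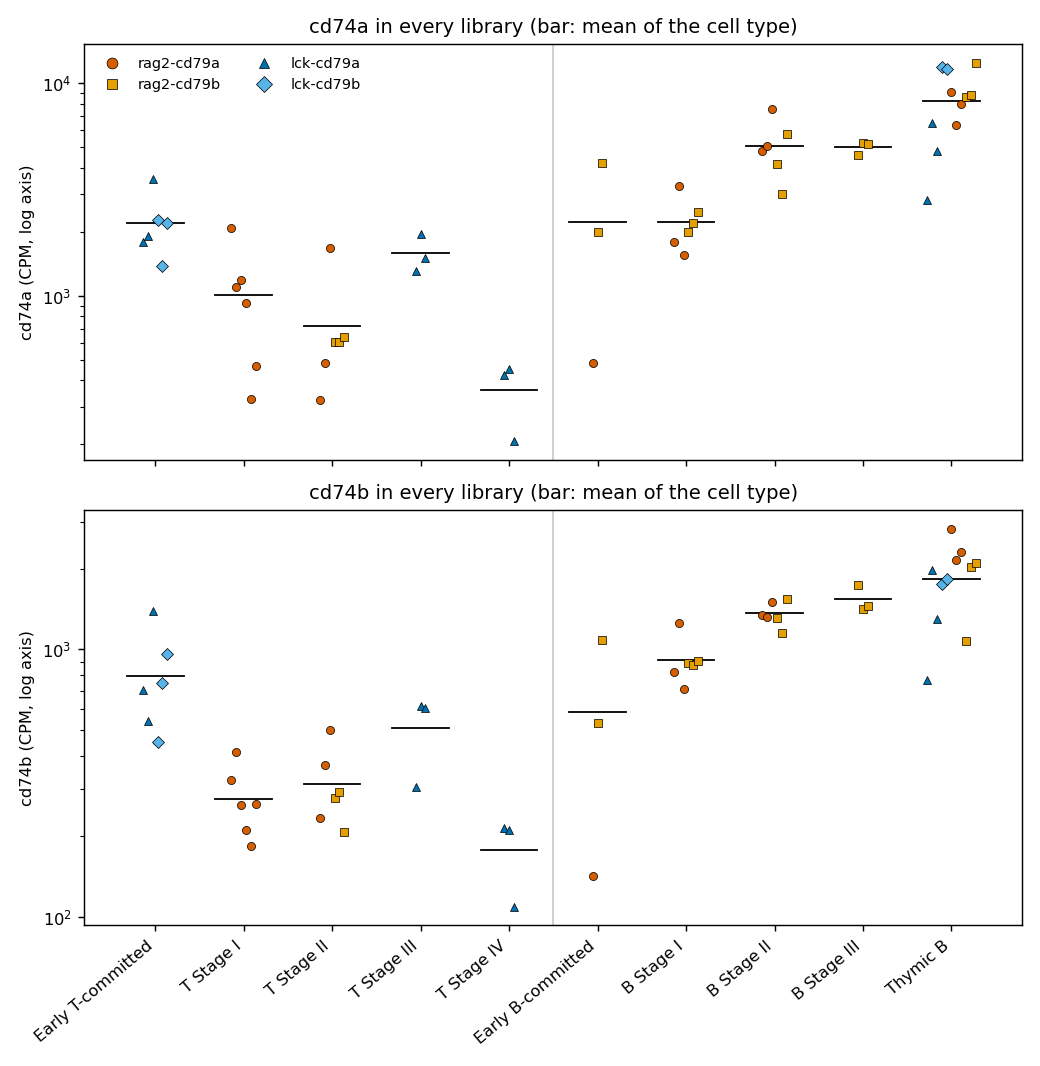
Level of cd74a (top) and cd74b (bottom) in each of the 53 libraries, in CPM on a log axis, by cell type, with T-labelled populations left of the grey line and B-labelled populations right of it. Points are libraries, coloured by line, and bars are means; the 11 Thymic B libraries lie above all 18 thymic T libraries for both genes.

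Within the thymus the B-labelled and T-labelled libraries did not overlap for either gene. The highest cd74a level among the 18 thymic T libraries was 2079 CPM and the lowest among the 11 Thymic B libraries was 2830 CPM. For cd74b the corresponding levels were 614 CPM and 767 CPM. In the marrow the lineages did overlap. The 18 marrow B libraries held 486 to 7553 CPM of cd74a with a median of 3733 CPM, and the 6 marrow T libraries 1388 to 3563 CPM with a median of 2062 CPM. For cd74b the marrow B libraries held 142 to 1738 CPM and the marrow T libraries 450 to 1386 CPM. Over both lineages, marrow cd74a had a median of 2753 CPM (n = 24) and thymic cd74a a median of 1513 CPM (n = 29). The tissues gave different populations, and this difference was not tested.

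The sorted labels were checked against marker genes of each lineage. The summed level of 9 B cell markers, led by the kinase gene SYK and the adaptor gene blnk, ran from 1212 to 3725 CPM in Thymic B and from 1727 to 3321 CPM in B Stages I and II. It was lower in the early populations, at 819 to 1027 CPM in Early B-committed cells (40.2% of the Thymic B mean) and 167 to 590 CPM in Early T-committed cells (14.3%). It ran from 0 to 25.9 CPM in T Stage II, 5.63 to 21.5 CPM in T Stage I, 21.3 to 44.9 CPM in T Stage III and 1.15 to 1.99 CPM in T Stage IV. The antigen receptor gene cd79a was at 0 in every T Stage III and T Stage IV library. In Early T-committed cells it stood at 0, 0 and 0 CPM (lck-cd79b) and at 0, 17.2 and 0.46 CPM (lck-cd79a). The summed level of 12 T cell markers, led by the transcription factor gene bcl11ba and the coreceptor gene cd8a, ran from 2888 to 6590 CPM in the 18 thymic T libraries and from 41.0 to 338 CPM in Thymic B. The thymic T populations that held cd74a and cd74b thus held B cell markers at low levels. The marker sum was higher in the Early T-committed cells of the marrow. Of the 9 markers 7, cd79a among them, were called higher in Thymic B than in Early T-committed cells, where 3.52% of all genes were. SYK was not called. Thymic epithelial cells, which also make class II in mammals, were checked by 11 markers led by the keratin genes krt8 and krt18b, whose sum ran from 10.9 to 616 CPM in Thymic B, 46.8 to 151 CPM in T Stage I, 38.6 to 107 CPM in T Stage II, 54.5 to 423 CPM in T Stage III and 15.1 to 144 CPM in T Stage IV. In T Stage III the library with the highest epithelial sum, replicate 46, also held the most cd74a (1962 CPM). It had the highest myeloid and T cell marker sums of that stage as well (284 and 3819 CPM). The part of epithelial cells in the levels was not tested. The B cell marker sum of T Stage II averaged 0.410% of the Thymic B mean, while its cd74a averaged 8.76% and its cd74b 17.1%. In T Stage IV these shares were 0.0658% for the B cell markers, 4.37% for cd74a and 9.73% for cd74b. All these shares use the Thymic B mean over the 4 lines, 8274 CPM for cd74a and 1832 CPM for cd74b. T Stages III and IV came from lck-cd79a alone, where Thymic B averaged 4704 and 1351 CPM. Their cd74a and cd74b shares within that line are therefore higher. In bulk samples, fewer cells of a type and less RNA per cell cannot be told apart. The part of B cells, or of myeloid cells whose markers are given below, in the T cell levels was not tested.

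**Figure D2:**
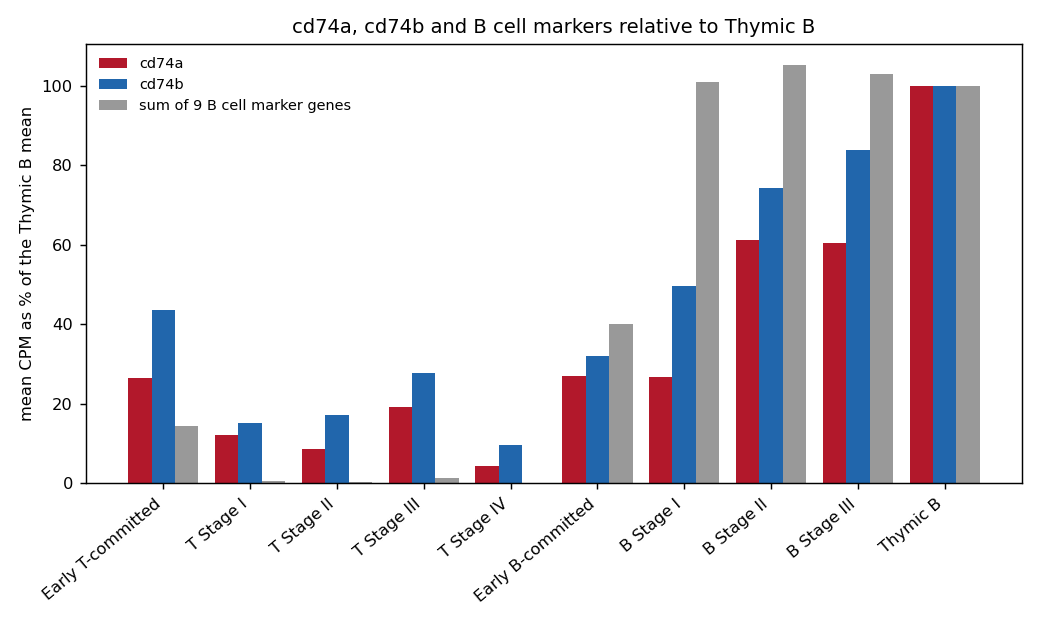
Mean CPM of cd74a, cd74b and the sum of 9 B cell marker genes in each cell type, as a percentage of the Thymic B mean (bars start at 0, no error shown). That mean is over all 4 lines. T Stages III and IV came from lck-cd79a alone, where Thymic B held less cd74a and cd74b, so their shares within that line are higher. In T Stages I to IV the B cell marker sum was at most 1.30% of the Thymic B mean while cd74a stood between 4.37% and 19.3% and cd74b between 9.73% and 27.7%. The source of cd74a and cd74b in these populations was not tested.

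The first comparison asked how far thymic B cells differ from the T cells that share the thymus with them. Both invariant chain genes were several-fold higher in Thymic B than in T Stages I to IV. In the rag2 lines, cd74a in T Stage II stood at 322, 485 and 1685 CPM (rag2-cd79a) and at 606, 605 and 644 CPM (rag2-cd79b). Thymic B of the same lines stood at 9126, 6376 and 7989 CPM and at 8582, 8760 and 12468 CPM. The ranges were far apart in both lines, and cd74a was 13.1-fold higher in Thymic B (log2 fold change 3.71, SE 0.29, adjusted p = 1.43e-19). For cd74b, T Stage II held 234, 369 and 498 CPM and 279, 293 and 208 CPM, and Thymic B held 2825, 2165 and 2312 CPM and 1077, 2027 and 2108 CPM. The groups again did not overlap, and cd74b was 7.31-fold higher (log2 2.87, SE 0.31, adjusted p = 4.84e-15). Both members were thus called higher where 3.66% of the 14423 genes were called higher, a call being an adjusted p under 0.05. In the rag2-cd79a line Thymic B was also set against T Stage I, a comparison added after seeing the data: cd74a was 10.6-fold higher (log2 3.41, SE 0.31, adjusted p = 9.61e-16) and cd74b 11.0-fold higher (log2 3.46, SE 0.35, adjusted p = 4.60e-17), where 3.59% of genes were called higher.

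In the lck-cd79a line, Thymic B held cd74a at 2830, 6495 and 4788 CPM, T Stage III at 1314, 1962 and 1513 CPM and T Stage IV at 422, 455 and 208 CPM. The lowest Thymic B library lay above the highest T Stage III library and far above T Stage IV. The level of cd74a was 3.42-fold higher in Thymic B than in T Stage III (log2 1.77, SE 0.37, adjusted p = 0.00122) and 16.1-fold higher than in T Stage IV (log2 4.01, SE 0.41, adjusted p = 1.08e-12). The paralog cd74b stood at 767, 1984 and 1302 CPM in Thymic B, at 307, 614 and 602 CPM in T Stage III and at 214, 211 and 109 CPM in T Stage IV. Its groups did not overlap either, and cd74b was 3.12-fold higher than in T Stage III (log2 1.64, SE 0.42, adjusted p = 0.0104) and 9.33-fold higher than in T Stage IV (log2 3.22, SE 0.44, adjusted p = 4.84e-09). Both genes were called higher against T Stage III, with 1.06% of the 14423 genes, and against T Stage IV, with 1.44%. The call of cd74b against T Stage III rested on single libraries: without T Stage III replicate 45 the log2 fold change was 1.46 (adjusted p = 0.122) and without Thymic B replicate 52 it was 1.33 (adjusted p = 0.161). Myeloid and dendritic cell markers moved in the same direction in part. Of 18 such genes, NCF1, IRF8 and cybb were higher in Thymic B than in T Stages II, III and IV, and c1qb was lower than in T Stage III. The others were not called, 15 of 18 against T Stages II and IV and 14 of 18 against T Stage III. NCF1 and cybb were also called higher in B Stage I than in Early B-committed cells, so they rose between B-labelled populations too. The summed level of the list ran from 531 to 1880 CPM in Thymic B. It ran from 141 to 547 CPM in T Stage I and from 76.9 to 255 CPM in T Stage II. In T Stages III and IV it ran from 125 to 284 CPM and from 3.76 to 119 CPM. The part of these cells in the results was not tested. The lysozyme gene lyz was at 0 in every T Stage II, III and IV library and between 0 and 15.4 CPM in Thymic B. The scavenger receptor gene marco reached at most 11.6 CPM in Thymic B. Its highest library was at 14.9 CPM in T Stage II, 2.04 CPM in T Stage III and 19.8 CPM in T Stage IV.

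The next comparisons followed the T populations in the order the labels give them. From T Stage III to T Stage IV cd74a fell. All 3 T Stage IV libraries of cd74a (208 to 455 CPM) lay under the lowest T Stage III library (1314 CPM), and cd74a was 4.71-fold lower (log2 fold change -2.24, SE 0.38, adjusted p = 0.000335). For cd74b the ranges were likewise apart, 109 to 214 CPM against 307 to 614 CPM, but the fold change of -1.58 on the log2 scale (SE 0.42) missed the threshold (adjusted p = 0.135). Thus 1 of the 2 members was called lower, where 0.0763% of the 14423 genes were lower. The call of cd74a was lost without T Stage IV replicate 50 (log2 -2.11, adjusted p = 0.0973), and cd74b was called by DESeq2 (log2 -1.58, adjusted p = 0.000162) and when only these groups entered the fit (log2 -1.63, adjusted p = 0.0316). Among B cell markers SYK was the only 1 of 9 called lower in T Stage IV.

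Between T Stage I and T Stage II neither gene was called, in a comparison with 0% of 14423 genes called by edgeR, 707 at an unadjusted p under 0.05 and 880 called by DESeq2. Within T Stage I the sorted populations differed in level. Population T2 held cd74a at 2079, 1096 and 1182 CPM and population T3 at 923, 327 and 467 CPM, without overlap. The libraries with the most cd74a in T2 and T3 (replicates 27 and 30) also had their highest myeloid marker sums (547 and 285 CPM). Those with the most cd74b in T2 and T3 (replicates 28 and 32) had their lowest myeloid marker sums (149 and 141 CPM). The part of myeloid cells in the cd74a difference between T2 and T3 was not tested. The log2 fold change of T3 over T2 was -1.29 (SE 0.37, unadjusted p = 0.000755) and did not pass the adjustment (adjusted p = 1), in a comparison with 0% of genes called and 397 at an unadjusted p under 0.05. For cd74b population T2 held 324, 414 and 262 CPM and T3 211, 184 and 264 CPM, which overlapped. The log2 fold change of cd74a from T Stage I to T Stage II was 0.03 (SE 0.32, adjusted p = 1). Its sign depended on T Stage II replicate 26, the library at 1685 CPM: without it the change was -1.23 (adjusted p = 0.606). For cd74b it was 0.52 (SE 0.35, adjusted p = 1).

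T Stage III was sorted from the lck-cd79a line and was set against T Stage II of the rag2-cd79a line, so this step crosses lines, and the Thymic B difference of those lines was subtracted. The mean of cd74a was 1596 CPM in T Stage III and 831 CPM in T Stage II of that line. In Thymic B it was 4704 CPM in lck-cd79a and 7830 CPM in rag2-cd79a. The subtraction therefore raised the estimate for cd74a. It assumes that the line difference seen in Thymic B holds in T cells as well, which was not tested. The estimated log2 fold change of T Stage III over T Stage II was 1.60 for cd74a (SE 0.52, adjusted p = 0.351) and 1.30 for cd74b (SE 0.58, adjusted p = 0.574), and neither was called, where 0.0139% of genes were. Without T Stage II replicate 26 that of cd74a was 2.85 (adjusted p = 0.000102), and DESeq2 called both (cd74a log2 1.83, adjusted p = 0.0175; cd74b log2 1.4995, adjusted p = 0.0211). Against Early T-committed cells of the marrow in the same line, T Stage III was not called different in cd74a (log2 -0.55, 95% interval -1.26 to 0.17, adjusted p = 0.544) or cd74b (log2 -0.75, 95% interval -1.55 to 0.05, adjusted p = 0.42), where 1.04% of genes were called. The early libraries held cd74a at 1794, 1915 and 3563 CPM and cd74b at 707, 541 and 1386 CPM.

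In the marrow cd74a rose between the first B stages. From B Stage I to B Stage II cd74a went from 1795, 3288 and 1557 CPM to 4802, 5051 and 7553 CPM in the rag2-cd79a line and from 1988, 2197 and 2487 CPM to 4179, 3019 and 5775 CPM in the rag2-cd79b line. Every B Stage II library lay above every B Stage I library of its own line. The level of cd74a was 2.42-fold higher in B Stage II (log2 1.27, SE 0.26, adjusted p = 0.00175). For cd74b, B Stage I held 822, 1256 and 713 CPM and 891, 871 and 902 CPM, and B Stage II 1343, 1324 and 1501 CPM and 1315, 1151 and 1545 CPM. The libraries of each line were again apart, but the log2 fold change of 0.70 (SE 0.29) was not called (adjusted p = 0.328). Thus 1 of 2 members was called higher, where 0.153% of the 14423 genes were. With edgeR's legacy dispersion estimate cd74a missed the threshold (log2 1.27, adjusted p = 0.0686). The marrow of zebrafish lies in the kidney, and kidney tubule markers moved the other way. Of 7 such genes 3 were lower in B Stage II, where 161 of 14423 genes were called, 22 of them higher. The summed level of these markers ran from 191 to 1593 CPM in B Stage I and from 60.9 to 230 CPM in B Stage II. Their part in the result was not tested.

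B Stage III and B Stage II of the same line were not called different. B Stage III held cd74a at 4612, 5231 and 5179 CPM (log2 0.20, 95% interval -0.51 to 0.91, adjusted p = 1) and cd74b at 1738, 1416 and 1457 CPM (log2 0.19, 95% interval -0.60 to 0.99, adjusted p = 1), in a comparison where 0.0277% of genes were called. Both changes took the opposite sign without B Stage II replicate 14, at -0.09 for cd74a and -0.00419 for cd74b.

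Early B-committed cells gave only 3 libraries. The single library of the rag2-cd79a line held cd74a at 486 CPM and cd74b at 142 CPM, and those of the rag2-cd79b line held cd74a at 1997 and 4210 CPM and cd74b at 529 and 1086 CPM. The rag2-cd79a library was below all 6 B Stage I libraries for both genes. Of the rag2-cd79b libraries, the lower was within the B Stage I range for cd74a and below it for cd74b, and the higher was above that range for cd74a and within it for cd74b. In the mean over lines, cd74b was 2.91-fold higher in B Stage I (log2 1.54, SE 0.41, adjusted p = 0.0251), and cd74a was not called (log2 0.98, SE 0.35, adjusted p = 0.24), so that 1 of 2 members was higher, where 0.582% of genes were. The call of cd74b was lost without Early B-committed replicate 7 (log2 1.379, adjusted p = 0.169) and without B Stage I replicate 40 (log2 1.41, adjusted p = 0.0856), and with the legacy dispersion (log2 1.54, adjusted p = 0.0917). With only these groups in the fit cd74a was called as well (log2 0.96, adjusted p = 0.0333). The rag2-cd79a library of the early B cells had no replicate and was not among those left out. In the rag2-cd79b line alone, added after seeing the data, the log2 fold change was 0.27 for cd74b (SE 0.46, adjusted p = 0.936) and -0.34 for cd74a (SE 0.40, adjusted p = 0.826), and neither was called, where 0.527% of genes were. The difference of the change between the lines was -2.63 on the log2 scale for cd74a (SE 0.71, unadjusted p = 0.000328, adjusted p = 0.492) and -2.54 for cd74b (SE 0.80, unadjusted p = 0.00158, adjusted p = 0.738), and neither was called, where 0% of genes were and 710 had an unadjusted p under 0.05. Myeloid markers were high in these libraries. The 18 genes summed to 1853 CPM in the rag2-cd79a library and to 921 and 2235 CPM in the rag2-cd79b libraries. In B Stage I they summed to 567 to 1625 CPM. The gene lyz stood at 1416 CPM in the rag2-cd79a early library and at 103 and 65.4 CPM in the rag2-cd79b early libraries. The gene marco went the other way, at 5.48 CPM against 88.8 and 309 CPM. The highest early sum was in the library with the most cd74a (4210 CPM). In B Stage I the myeloid genes NCF1 and cybb, the B cell markers cd37 and SYK and the kidney tubule genes fxyd2 and SLC22A2 were higher and the T cell marker cd28 lower, and the part of these cells in the result was not tested.

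Early T-committed and Early B-committed cells both came from marrow but from different lines. The comparison therefore again subtracts the difference of the lines in Thymic B, and assumes that it holds in the early cells. In the lck-cd79b line Early T-committed cells held cd74a at 2280, 1388 and 2210 CPM and cd74b at 450, 750 and 957 CPM. The log2 fold change of Early T-committed over Early B-committed cells was 0.91 for cd74a (SE 0.44, adjusted p = 0.405) and 1.48 for cd74b (SE 0.50, adjusted p = 0.0927), and neither was called, where 2.62% of genes were. For cd74b the result sat close to the threshold: it was called with median-ratio size factors (log2 1.74, adjusted p = 0.0208), by DESeq2 (log2 1.74, adjusted p = 0.000234) and without rag2-cd79b Thymic B replicate 4 (log2 1.68, adjusted p = 0.0347). The direction of both genes turned in the cd79b lines alone, added after seeing the data, which leaves out all rag2-cd79a and lck-cd79a libraries: the change was -1.19 for cd74a (SE 0.57, adjusted p = 0.304) and -0.47 for cd74b (SE 0.64, adjusted p = 1), where 3.5% of genes were called. Myeloid markers summed to 709 to 3992 CPM in Early T-committed cells, and erythroid markers, led by the globin genes hbaa1 and hbaa2, to 1235 to 16945 CPM in these and 1918 to 9612 CPM in Early B-committed cells.

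Thymic B cells of the lck lines were set against Early T-committed cells of the same lines. Thymic B of lck-cd79b held cd74a at 11982 and 11623 CPM, above all 3 early libraries of that line, and cd74b at 1755 and 1831 CPM, also above them. In the lck-cd79a line the groups overlapped for both genes: 1 of the 3 Thymic B libraries for cd74a (2830 CPM) and 2 of 3 for cd74b (767 and 1302 CPM) fell within the range of the early cells. In the mean over lines cd74a was 4.104-fold higher in Thymic B (log2 2.04, SE 0.28, adjusted p = 1.72e-08) and cd74b 2.35-fold higher (log2 1.23, SE 0.30, adjusted p = 0.0032), both called, with 3.52% of the 14423 genes higher. The difference of the change between the lines, 1.62 on the log2 scale for cd74a (SE 0.54, unadjusted p = 0.0036), did not pass the adjustment (adjusted p = 0.178), where 0.0416% of genes did. Other markers moved as well in Thymic B, where 853 of 14423 genes were called, 508 of them higher. Of 18 myeloid markers 2 were higher and 5 lower. Of 11 epithelial markers 3 (krt4, ccl25a and krt5) were higher and krt8 lower. Of 5 erythroid markers 3, and of 7 kidney tubule markers 2, were lower. The part of these markers in the result was not tested.

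Set against marrow B cells of the rag2 lines, Thymic B was above B Stage I for both genes, while the differences from B Stages II and III were not called. All 6 Thymic B libraries of these lines (cd74a 6376 to 12468 CPM) lay above all 6 B Stage I libraries (1557 to 3288 CPM), and cd74a was 3.91-fold higher (log2 1.97, SE 0.27, adjusted p = 5.13e-08). For cd74b 1 Thymic B library, at 1077 CPM, lay within the B Stage I range of 713 to 1256 CPM, and the gene was 2.25-fold higher (log2 1.17, SE 0.29, adjusted p = 0.0042). Both members were called higher, where 1.43% of genes were. Over B Stage II the log2 fold change was 0.69 for cd74a (95% interval 0.19 to 1.196, adjusted p = 0.159) and 0.47 for cd74b (95% interval -0.09 to 1.04, adjusted p = 0.507), and neither was called, where 1.32% of genes were. DESeq2 called both of these (cd74a log2 0.86, adjusted p = 0.0173; cd74b log2 0.64, adjusted p = 0.0402). Over B Stage III, in the rag2-cd79b line, it was 0.71 for cd74a (95% interval -0.01 to 1.42, adjusted p = 0.295) and -0.07 for cd74b (95% interval -0.87 to 0.72, adjusted p = 1), where 1.07% of genes were called. The cd74b change turned positive with median-ratio size factors (0.19), in DESeq2 (0.19) and without Thymic B replicate 4 (0.26). Of 7 kidney tubule markers, 5 were lower in Thymic B than in B Stage I, 2 lower than in B Stage II and 4 lower than in B Stage III. Against B Stage I 869 of 14423 genes were called, 206 of them higher. Against B Stage II 191 were called, 53 of them higher, and against B Stage III 155, 44 of them higher. The kidney tubule markers summed to at most 36.5 CPM in the Thymic B libraries of these lines.

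**Figure D3:**
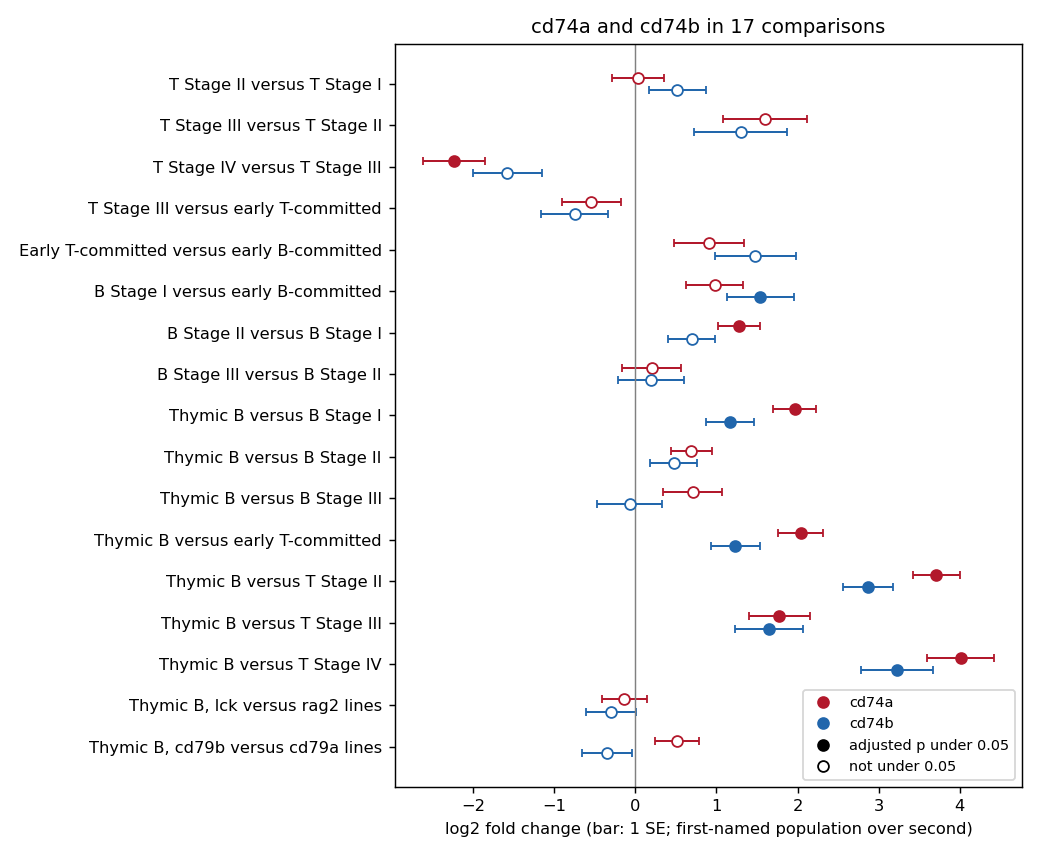
Fitted log2 fold changes of cd74a (red) and cd74b (blue) in the 17 comparisons, the first-named population over the second, with bars of 1 SE; filled points had an adjusted p under 0.05. The largest values of both genes were in Thymic B against T Stage IV (4.01 and 3.22) and the only called decrease was cd74a from T Stage III to T Stage IV (-2.24).

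No difference between the lines in Thymic B was called for the level of either gene. The ratio of the paralogs, given below, did separate the cd79b lines from the cd79a lines. The lck-cd79a libraries of cd74a (2830 to 6495 CPM) lay below both lck-cd79b libraries (11982 and 11623 CPM), a log2 difference of 0.92 after normalisation (SE 0.40) that was not called (adjusted p = 0.484), where 0% of genes were and 1312 had an unadjusted p under 0.05. The B cell marker sum was also lower in these lck-cd79a libraries, at 1212, 1986 and 1582 CPM against 2262 and 2186 CPM in lck-cd79b. The part of B cell content in the cd74a difference was not tested. Between the rag2 lines cd74a differed by 0.10 (95% interval -0.61 to 0.81, adjusted p = 1) and cd74b by -0.71 (95% interval -1.51 to 0.09, adjusted p = 0.407), where 0.437% of genes were called. Averaged over the red reporters, the cd79b lines over the cd79a lines gave 0.51 for cd74a (SE 0.27, adjusted p = 0.438) and -0.35 for cd74b (SE 0.31, adjusted p = 0.854), with 0.79% of genes called. The lck lines over the rag2 lines gave -0.13 for cd74a (SE 0.27) and -0.30 for cd74b (SE 0.31), both with an adjusted p of 1, and 0.52% of genes called. The labels name no batch and sample numbers run on within lines, so a batch, if there was any, could not be separated from the line.

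The balance between the paralogs differed between some populations. This balance was taken in each library as log2 of the ratio of cd74b to cd74a, each with 1 CPM added, and compared only between populations. It averaged -1.07 ± 0.57 in T Stage II and -2.12 ± 0.56 in Thymic B of the rag2 lines (SD, n = 6 each). Thymic B ran from -2.99 to -1.56 and T Stage II from -1.76 to -0.40, so the ranges overlapped, and the difference of -1.05 had p = 0.015 in an exact two-sided permutation test within lines, the smallest p possible being 0.005. From B Stage I (-1.27 ± 0.15) to B Stage II (-1.84 ± 0.31) the balance also shifted towards cd74a, by -0.58 (exact permutation p = 0.01, SD, n = 6 each). Adjusted over the 3 balances tested, both had p = 0.0225 by the permutation test. Between Thymic B and B Stage II the difference was -0.27 (exact permutation p = 0.33, adjusted p = 0.33 over the 3 balances). This mean joins lines that went opposite ways. In rag2-cd79a, Thymic B (-1.79 to -1.56) lay above B Stage II (-2.33 to -1.84). In rag2-cd79b, Thymic B (-2.99 to -2.11) lay below B Stage II (-1.90 to -1.39). The difference of this change between the lines was not tested. The balance can also be given as a share, again to be compared between populations only. On average cd74b amounted to 50.8% of cd74a in T Stage II, 49.9% in T Stage IV, 41.8% in B Stage I, 28.4% in B Stage II and 23.8% over all 11 Thymic B libraries. In T Stage I it ranged from 15.6% to 56.5%. Within Thymic B the log2 balance split by green reporter. All cd79b-line libraries (-2.99 to -2.11) lay below all cd79a-line libraries (-1.88 to -1.56). This split was not tested.

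**Figure D4:**
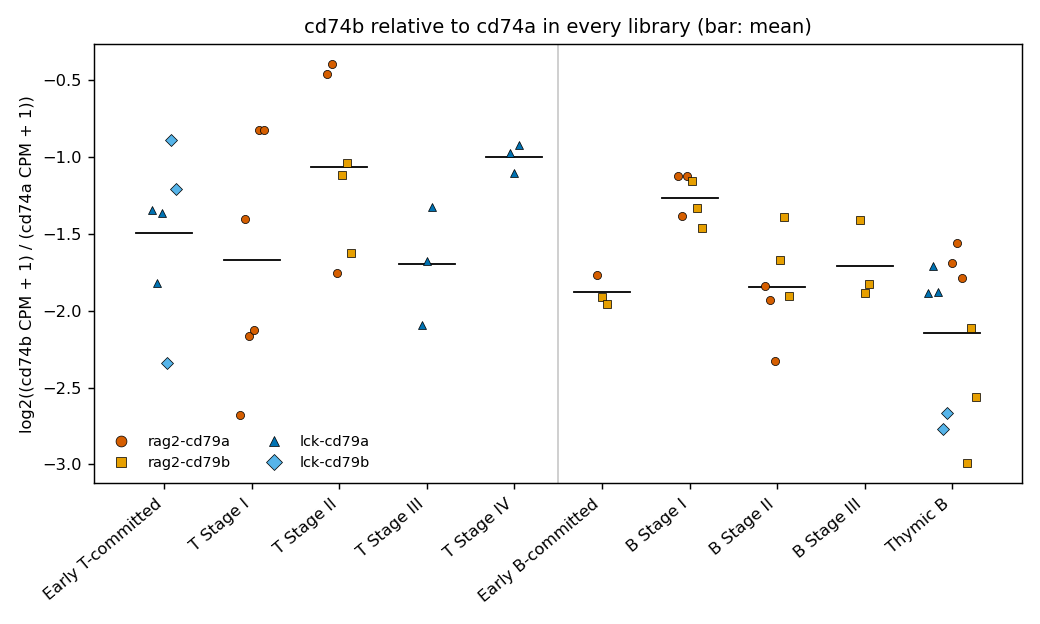
Balance of cd74b to cd74a in each library, as log2 of the ratio of their CPM with 1 CPM added, by cell type and line, with bars at the means. T Stage II (-1.07) and T Stage IV (-1.002) had the highest means and Thymic B the lowest (-2.15 over all 11 libraries). Within Thymic B the cd79b-line libraries (-2.99 to -2.11) all lay below the cd79a-line libraries (-1.88 to -1.56). In the rag2-cd79a line B Stage II (-2.33 to -1.84) lay below Thymic B.

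The class II chains that the invariant chain escorts were examined beside it. The gene table held 16 symbols for zebrafish class II chains, of which 8 were measured. The alpha chain gene mhc2daa and the beta chain gene mhc2dab had the highest mean levels of the list. In Thymic B mhc2daa stood at 1542, 1849 and 861 CPM (rag2-cd79a), 435, 558 and 403 CPM (rag2-cd79b), 414, 1714 and 392 CPM (lck-cd79a) and 1409 and 1023 CPM (lck-cd79b). In the marrow it ran from 105 to 533 CPM in B Stage I, 104 to 1579 CPM in B Stage II and 542 to 955 CPM in B Stage III. In T Stage II it stood at 238, 227 and 315 CPM and at 70.6, 83.9 and 83.5 CPM, below Thymic B of the same line in each case, and was higher in Thymic B (log2 2.63, SE 0.71, adjusted p = 0.0129). Against T Stage IV (184, 31.9 and 0 CPM) it was higher as well (log2 4.04, SE 1.07, adjusted p = 0.0334). That call was lost in 5 of 12 alternatives, among them without T Stage IV replicate 49 (log2 3.70, adjusted p = 0.202) or 50 (log2 3.46, adjusted p = 0.163) and without Thymic B replicate 52 (log2 3.09, adjusted p = 0.216). The call against T Stage II was lost with the legacy dispersion (adjusted p = 0.0543). The list as a whole had 3 of 8 genes higher in Thymic B than in T Stage II (mhc2daa, mhc2d4b and mhc2dga), where 3.66% of all genes were, and 2 of 8 higher than in B Stage I (mhc2d4b and mhc2dgb), where 1.43% were. It had 1 of 8 higher than in T Stage IV (1.44% of all genes) and 0 of 8 higher than in T Stage III (1.06%), and none lower in these 4 comparisons. Both cd74 genes were called higher than in Early T-committed cells, but 0 of 8 chains were called there (3.52% of all genes were called higher). None of the 8 was called against B Stage II (1.32% of all genes called) or B Stage III (1.07%). These counts were not stable. Across alternatives they ran from 0 to 5 against T Stage II, 0 to 4 against B Stage I, 0 to 3 against T Stage IV and 0 to 5 against T Stage III. They ran from 0 to 4 against Early T-committed cells and 0 to 1 against B Stage II, and stayed at 0 against B Stage III. Leaving out any of the 12 libraries compared with B Stage I left 0 or 1. The median log2 fold change of the 8 was 2.95 against T Stage II, where that of all genes was -0.99, 2.54 against B Stage I, where that of all genes was -1.28, and 3.86 against T Stage IV, where that of all genes was 0. With genes at 0 on 1 side put at the bound that 3 counts per library give, and genes at or under it on both sides left out, these medians were 2.95, 2.54 and 4.04.

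Unlike cd74a and cd74b, several class II chains were at 0 in whole sets of libraries. The beta chain gene mhc2dab had more than 3 counts in 2 of 12 lck-cd79a libraries and at most 2.69 CPM there, but held 247 to 1543 CPM in all 5 lck-cd79b libraries. Within Thymic B it stood at 630, 354 and 0 CPM in rag2-cd79b, 1543 and 1194 CPM in lck-cd79b, 38.8, 0.10 and 0 CPM in rag2-cd79a and 0 in all 3 lck-cd79a libraries. In this cell type it was called higher in the cd79b lines (adjusted p = 0.0049). Other populations of rag2-cd79a did hold mhc2dab, at 31.2 to 415 CPM in B Stage I and 44.7 to 654 CPM in B Stage II. In T Stage I of that line it ran from 0 to 308 CPM. The genes mhc2dga and mhc2dgb were at 0 in all 5 lck-cd79b libraries and reached 398 and 391 CPM elsewhere. The invariant chain genes showed no such gaps, with no level under 208 CPM for cd74a or under 109 CPM for cd74b in any library.

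The transactivator gene ciita, the master regulator of class II transcription, had its highest mean in Thymic B. It ran there from 67.0 to 357 CPM (mean 177 CPM, n = 11), against 14.3 to 78.0 CPM in T Stage II, 4.03 to 15.2 CPM in T Stage IV and 0 to 28.2 CPM in Early T-committed cells. In the marrow it ran from 20.6 to 88.8 CPM in B Stage I, 26.8 to 106 CPM in B Stage II and 84.7 to 143 CPM in B Stage III. All B Stage III libraries lay within the Thymic B range. The gene was not called in Thymic B against B Stage II or B Stage III. It was called higher in Thymic B than in B Stage I (3.78-fold, SE 0.57 on the log2 scale, adjusted p = 0.0216), T Stage II (6.37-fold, SE 0.59, adjusted p = 0.000363), T Stage IV (13.7-fold, SE 0.92, adjusted p = 0.00498) and Early T-committed cells (14.2-fold, SE 0.68, adjusted p = 6.75e-06). The calls against Early T-committed cells and against T Stage II held in every alternative run. That against B Stage I was lost with the legacy dispersion (adjusted p = 0.105) and without Thymic B replicate 33 or B Stage I replicate 10, 11, 39 or 41 (log2 1.70 to 1.87, adjusted p up to 0.0828). That against T Stage IV was lost with the legacy dispersion (adjusted p = 0.188) and without T Stage IV replicate 50 (log2 3.51, adjusted p = 0.0686) or Thymic B replicate 52 (log2 3.12, adjusted p = 0.0892). Among the 17 plotted comparisons, both cd74 genes were called higher in these 4 and against T Stage III, where ciita was not called. Both were also called higher against T Stage I, in the comparison added after seeing the data. No ciita test is given for that comparison. The other measured regulators of class II promoters were not called higher in any of the 17 plotted comparisons. Of 9 genes on that list, among them creb1a, only nfybb was called besides ciita. It was lower in Thymic B than in T Stage II, a call lost with the legacy dispersion (adjusted p = 0.0513). The list's median log2 fold change in that comparison was -0.62, where that of all genes was -0.99.

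**Figure D5:**
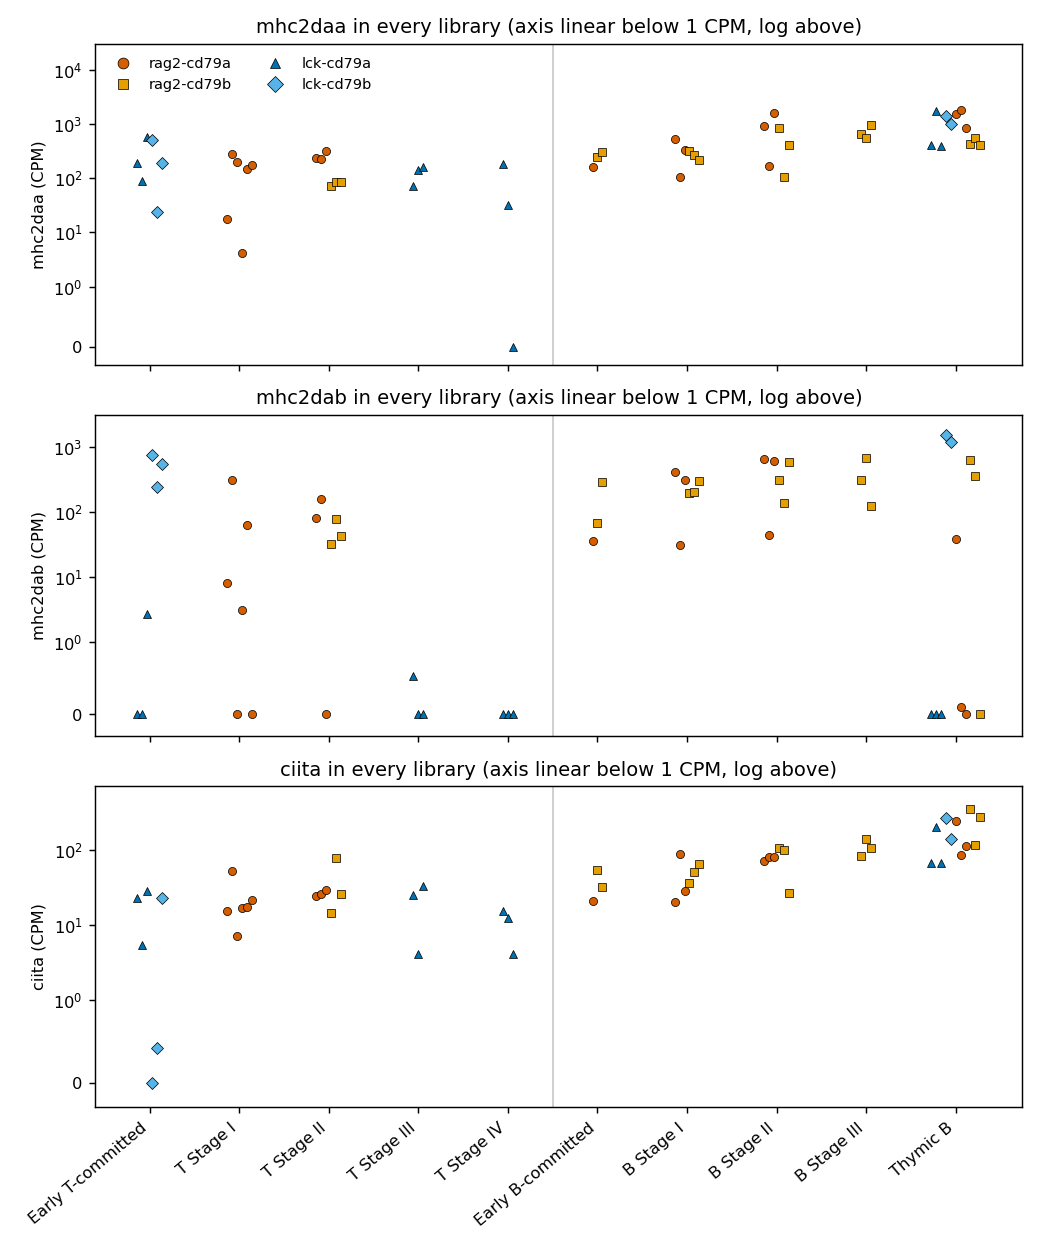
Level of the class II alpha chain gene mhc2daa, the beta chain gene mhc2dab and the transactivator gene ciita in each library, in CPM on an axis that is linear below 1 CPM and logarithmic above, by cell type and line. The lck-cd79a libraries hold mhc2dab at no more than 2.69 CPM. The level of ciita is 67.0 to 357 CPM in Thymic B and 84.7 to 143 CPM in B Stage III.

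Genes of class II processing followed the invariant chain only in part. Cathepsin S, named in the zebrafish genes ctss2.1 and ctss2.2, cuts the invariant chain in mammals, and LGMN encodes the endosomal protease legumain. Of 9 genes of this list these 3 were higher in Thymic B than in T Stage II (3.66% of all genes) and none lower. The list median was 1.56 on the log2 scale, where that of all genes was -0.99. Against B Stage I ctss2.2 was higher (3.74-fold, adjusted p = 0.0353) and the cathepsin L gene ctsla lower (7.40-fold, adjusted p = 0.0271). The list median was -0.28 there, or -0.21 with the bounds, where that of all genes was -1.28. Against Early T-committed cells ctss2.1 and the cathepsin D gene CTSD were lower in Thymic B, 3.27-fold (adjusted p = 0.0333) and 7.21-fold (adjusted p = 0.0121), while both cd74 genes were higher. Of the receptor partners and ligands of CD74, 3 of 9 symbols were measured, MIF, its homologue ddt and cd44b, and none was called in any of the 17 plotted comparisons. MIF averaged 92.5 CPM in Thymic B and 103 CPM in T Stage II. In the MHC class I list, 1 of 15 genes, the light chain gene b2m, was higher in Thymic B than in B Stage I (2.43-fold, adjusted p = 0.00247), where 1.43% of all genes were. Against T Stage II b2m was higher (5.99-fold, adjusted p = 6.10e-10) and the transporter gene TAP1 lower, while the other light chain gene, b2ml, was not called. The list's median log2 fold change was -0.09 against B Stage I and 0.21 against T Stage II (0.40 with the bounds). Those of all genes were -1.28 and -0.99.

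By level across the 53 libraries, the gene most like cd74a was cd74b, and the reverse, with a Pearson r of 0.94 on log2(CPM + 1) among 6030 candidate genes with a mean of at least 10 CPM. Among the next genes for cd74a were MPEG1 (r = 0.88), which encodes the pore protein perforin-2, the cytokine receptor gene csf2rb (r = 0.84) and the transcription factor gene IRF8 (r = 0.82). MPEG1 was not among the 18 myeloid markers summed above. For cd74b they included MPEG1 (r = 0.83), csf2rb (r = 0.83) and the NADPH oxidase gene cybb (r = 0.83). The class II genes ranked lower: mhc2daa stood at rank 76 for cd74a (r = 0.68) and 65 for cd74b (r = 0.72), ciita at 101 (r = 0.64) and 108 (r = 0.64), and mhc2dab at 469 for cd74a (r = 0.27). MPEG1 averaged 476 ± 255 CPM in Thymic B (SD, n = 11) and 16.2 ± 22.4 CPM in T Stage IV (SD, n = 3). These correlations are descriptions over libraries that share cell types, lines and depth differences, and carry no p. Over the 19 group means the leading gene was again the paralog (r = 0.97), with MPEG1 second for both. There mhc2daa rose to rank 7 for cd74a (r = 0.90) and 10 for cd74b (r = 0.90), and ciita to 34 (r = 0.83) and 83 (r = 0.77). For cd74a IRF8 fell to rank 30 (r = 0.83) and mhc2dab to 531 (r = 0.40), and for cd74b cybb fell to 19 (r = 0.86).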

How the data were processed

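Libraries were sorted populations of zebrafish lymphocytes, 53 in 19 groups of 1 to 3, sequenced from transcript 3' ends, with about 2.5 ug RNA each. Per the submitters' processing notes, FastQC 0.11.8, STAR, featureCounts and DESeq2 1.38.3 were used with GRCz11. The authors deposited read counts per gene, which are the values tested here. The deposited normalised signal is those counts divided by a size factor of 0.649 to 1.65 per library, and deposited log2 values are variance-stabilised. The table held 14423 genes, each with at least 10 counts in at least 3 libraries, and 13909 had a symbol in the gene name table. A further row for the gfp reporter, at most 0.577% of a library, was left out of the tests and stays in the CPM totals. Genome coordinates and sequences were not used here. Counts without molecular identifiers carry counting error only in their intervals. Replicates were compared in 50 pairs and all differed beyond sampling noise, with chi-square per degree of freedom from 128 to 599.

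Levels are CPM (counts per 1000000 counts of the library), made here. The main test was the quasi-likelihood test of edgeR 4.0.16, run under R 4.3.3 (TMM scaling, robust fit, 19 group means over 53 libraries, Benjamini-Hochberg adjustment over all 14423 genes in each comparison). The current quasi-likelihood dispersion was used; the legacy estimate, which the installed version uses unless told otherwise, is an alternative added after seeing the data, as are the comparisons within T Stage I, of Thymic B with T Stage I, between single lines and in the cd79b lines alone. Where populations came from both lines, the mean over lines was compared. The step from T Stage II to T Stage III, and that between the early committed populations, cross lines; the Thymic B difference of those lines was subtracted. Other alternatives were median-ratio size factors, no filter and a stricter filter, only the groups compared, DESeq2 1.42.0, and leaving out each library. Every gene in the table met the main filter, so the fit with no filter repeats the main fit. The p-values of paralog balance are from exact permutation within lines. The 95% intervals of fold changes are normal intervals from their SE. Bounds for genes at 0 use 3 counts per library. The fits were checked on simulated data.

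The members and the gene lists were chosen with earlier results of these data known. Named from each pathway list were the 2 genes with the highest mean and any called in more than 2 comparisons, and from each marker list the 2 with the highest mean; any other gene named was chosen after its values were seen. Of the genes most like each member by level, 1 is not reported here. Python 3 with numpy 2.4.6, pandas 2.3.3 and scipy 1.17.1 was used.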

Additional observations from a re-analysis of the deposited data

Results flagged for a closer look

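Of the 10 sets tested, 5 cell types of 6 libraries for each of the 2 genes, 2 held a library that stood apart by Dixon's test of the gap to its neighbour; chance gives about 1 in 20. Each set pools 2 lines or 2 sorted populations. In T Stage II the highest cd74a library was replicate 26 of the rag2-cd79a line at 1685 CPM, with the other 5 libraries between 322 and 644 CPM and a gap of 0.76 of the whole range. In that library B cell markers summed to 25.9 CPM and T cell markers to 3431 CPM, the highest and the lowest of the 6, and myeloid markers to 203 CPM. In B Stage I the highest cd74b library was replicate 40 of the rag2-cd79a line at 1256 CPM, with a gap of 0.65 of the range. Its myeloid and erythroid marker sums, 1625 and 3064 CPM, were the highest of the 6, and its B cell marker sum was 2528 CPM.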

How the results depend on the processing

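Of 37 results on cd74a and cd74b, 22 kept their direction and their side of the threshold under every alternative, as did 555 of the 583 alternatives run. These counts, and those of class II below, include the fit with no filter. That fit could not differ from the main one, because every gene already met the filter. With median-ratio size factors cd74a from T Stage I to T Stage II became -0.086, cd74b in Thymic B against B Stage III 0.19, and cd74b in the early T cells against the early B cells 1.74. With DESeq2 these were -0.0863, 0.19 and 1.74, and calls were gained in T Stage III against T Stage II (cd74a 1.83, cd74b 1.4995), T Stage IV against T Stage III (cd74b -1.58) and Thymic B against B Stage II (cd74a 0.86, cd74b 0.64). With only the groups compared, cd74b in T Stage IV against T Stage III (-1.63) and cd74a in B Stage I against the early B cells (0.96) were called. With the legacy dispersion, calls were lost for cd74b in B Stage I against the early B cells (1.54) and cd74a in B Stage II against B Stage I (1.27). The cause was not tested. In the cd79b lines alone, added after seeing the data, B Stage I against the early B cells became -0.34 for cd74a and 0.27 for cd74b, and the early T cells against the early B cells -1.19 and -0.47. The 12 calls on class II chains and their regulators held less well: 51 of 202 alternatives lost the call, and 3 of the 12 lost it in none.

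Leaving out 1 library at a time gave, for cd74a, -1.23 to 0.46 in T Stage II against T Stage I, 1.16 to 2.85 in T Stage III against T Stage II, -2.43 to -2.11 in T Stage IV against T Stage III and -0.085 to 0.54 in B Stage III against B Stage II. For cd74b it gave 1.379 to 1.77 in B Stage I against the early B cells, -0.00419 to 0.38 in B Stage III against B Stage II, -0.27 to 0.26 in Thymic B against B Stage III, 1.33 to 1.88 against T Stage III and 1.21 to 1.69 for the early T cells against the early B cells. The sign of cd74a in T Stage II against T Stage I also turned without T Stage I replicate 28 (-0.07) or 31 (-0.10).

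The number of genes called depended on the tool: DESeq2 called 880 to 4616 genes per comparison where edgeR called 0 to 1439, and the legacy dispersion called 18 in place of 152 in B Stage I against the early B cells. Median-ratio scaling moved the median log2 fold change of all genes by -0.136 to 0.207 across comparisons, and the share of called genes that were higher in Thymic B from 23.7% to 34.3% against B Stage I and from 59.6% to 47.9% against Early T-committed cells. No paired analysis was possible because sample numbers run on across the series and no number is shared between groups.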
